A study of Mus musculus with 8 samples.

Results

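Rplp0, Rplp1 and Rplp2 encode the proteins of the ribosomal stalk, and they are 3 of the 13120 genes with reads in the series. The 3 genes were chosen by name, and in part on the higher share of Rplp2 reads with tails of 30 to 90 nt at 24 h, so that every value of the 24-h contrast is given here as a description, with no test. They held 38183 of the reads kept, or 1.98% of all reads: 12648 for Rplp0, 17966 for Rplp1 and 7569 for Rplp2. All 3 passed the minimum of reads of each fit. The cells were mouse P19, an embryonal carcinoma line of wild-type genotype kept undifferentiated. They received 10 µM MHY1485 (MHY), a compound used to activate the mTOR pathway, or an equal amount of its solvent DMSO, for 24 h or 48 h, with daily renewal of the medium. The 4 groups had 2 libraries each, called biological replicates in the study, and all cells came from this 1 line, so that other cells were not measured.

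The stalk is the flexible arm of the large ribosomal subunit that recruits translation factors. Its base, the protein of Rplp0 (P0), sits on the ribosomal RNA beside the protein of Rpl12 and carries dimers of the acidic proteins P1 (Rplp1) and P2 (Rplp2). The C-terminal tails of P0, P1 and P2 bind elongation and release factors such as eEF2 and stimulate their GTP hydrolysis. Like other ribosomal protein mRNAs, the 3 transcripts belong to the TOP class, which begins with a 5′-terminal oligopyrimidine tract and whose translation is controlled by mTOR through LARP1. The poly(A) tail at the other end of the mRNA is bound by poly(A)-binding protein and is shortened as the mRNA ages.

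The 5′ end of the reads is shown first, because the TOP class is defined by a pyrimidine tract at that end. Control of the 3 mRNAs by mTOR through this tract was not tested. Each line gives 30 bases around the position at which reads of the main transcript most often started, taken from the GENCODE vM21 transcript (assembly mm10), 5′ to 3′ on the transcript strand, with the longest run of at least 6 C or T before that position in capitals. The usual read start is base 61 of the annotated transcript of Rplp0, base 16 of Rplp1 and base 294 of Rplp2.
Rplp0 (ENSMUST00000086519.11, chr5:115559509-115559538, plus strand): gcccgTCTCTCgccaggcgtcctcgttgga
Rplp1 (ENSMUST00000008036.8, chr9:61914513-61914542, minus strand): gaTCTTTTCCTCagctgccgccaaggtgct
Rplp2 (ENSMUST00000084434.10, chr7:141447645-141447674, plus strand): gTCTTCCTTTCgccgccggacgccgccgag
The run is 6 bases long in Rplp0 and 10 in both Rplp1 and Rplp2, and it ended 7, 3 and 7 bases before the usual read start. A run of at least 6 C or T (transcript strand only) lay within the 15 bases before the usual start in 19.96% of 2099 genes with at least 100 reads and in 92.6% of the 68 ribosomal protein genes that could be searched. Nanopore reads stop short of the cap, so that the letters are a description and not a mapped start site.

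The 3′ end is shown because the tail begins there, and because the annotated transcripts of Rplp0 and Rplp2 run past it. The lines give the 30 bases up to the usual read end, with the poly(A) signal AATAAA in capitals.
Rplp0 (chr5:115563486-115563515, plus strand): gatggaAATAAAggcttacttctcttaaaa
Rplp1 (chr9:61913284-61913313, minus strand): ttaagttggctAATAAAgagctgaacctgt
Rplp2 (chr7:141451315-141451344, plus strand): gctcccctgcaAATAAAgtctttttatgta
AATAAA, searched on the transcript strand, was held by the same window in 68.4% of 2532 genes. Reads ended at base 1146 of the 1358 bases annotated for Rplp0, at the last base (499) of Rplp1 and at base 723 of 964 for Rplp2. The share of main-transcript reads that ended within 10 nt of that base was 71.6% to 76.5% over the 8 libraries for Rplp0, 95.2% to 96.6% for Rplp1 and 89.2% to 92.0% for Rplp2.

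Libraries carry the numbers of the deposited table (names, not hours): each treatment has a library 21 and a library 23 at 24 h, and a library 24 and a library 25 at 48 h. They held 178369 to 316546 reads. Runs 1 to 3 held the 24-h libraries and runs 4 and 5 the 48-h libraries, each with both treatments, so that time and run cannot be told apart. No read was listed under more than 1 library. MHY library 24 stood apart over all reads, in that its median tail was 92.4 nt, against 96.8 to 99.3 nt in the other 48-h libraries, and 4.46% of its reads had tails under 30 nt, against 2.57% to 3.38%. The main 48-h values are also given without it. Of 8 markers of undifferentiated P19 cells all had reads, led by Pou5f1 (2177 to 2985 RPM), and 5 of 8 neural and glial markers had reads, led by Stmn2 (159 to 346 RPM), whereas Dcx and Gfap were among those with 0 reads. The summed neural markers were 287 to 421 RPM at 24 h, 314 to 315 under DMSO at 48 h and 222 to 250 under MHY at 48 h, and of the P19 markers Tdgf1 fell at 48 h (log2 change -0.997 ± 0.21, SE, limma voom, adjusted p = 0.000679; -0.69 and adjusted p = 0.580 without MHY library 24). The part of these markers in the results was not tested.

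The 3 stalk mRNAs differed in tail length among themselves, in the same order in every library. Rplp2 had the longest tails, Rplp1 followed and Rplp0, the base of the stalk, had the shortest. At 24 h the median tail of Rplp0 was 87.5 nt in DMSO library 21, 86.4 in DMSO library 23, 86.3 in MHY library 21 and 88.04 in MHY library 23. The groups overlapped for Rplp0. The median tail of Rplp1 was 94.6 and 95.4 nt in DMSO libraries 21 and 23, and 90.7 and 90.5 nt in the MHY libraries of those numbers. That of Rplp2 was 105.7 and 106.6 nt under DMSO, and 97.2 and 100.2 nt under MHY. For Rplp1 and Rplp2 (2 of 3 members) the groups did not overlap, with MHY lower, as in 17.9% of genes.

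At 48 h the medians of Rplp0 were 81.5 and 85.03 nt in DMSO libraries 24 and 25, and 77.05 and 82.1 nt in the MHY libraries. Those of Rplp1 were 87.2 and 91.4 nt under DMSO and 81.4 and 87.3 nt under MHY, and those of Rplp2 were 102.2 and 101.2 nt under DMSO and 85.8 and 98.5 nt under MHY. Of the 3 members 1, Rplp2, had both MHY medians below both DMSO medians at 48 h (21.8% of genes did), and its lowest value was that of MHY library 24. The difference of group means was -9.55 nt for Rplp2 (exact permutation test over the libraries, p = 0.33, the smallest p that 2 against 2 libraries can give), -4.91 nt for Rplp1 and -3.68 nt for Rplp0 (exact p = 0.67 for both). MHY library 25 alone differed from the DMSO mean by -3.20 nt for Rplp2, -1.98 nt for Rplp1 and -1.17 nt for Rplp0.

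**Figure D1:**
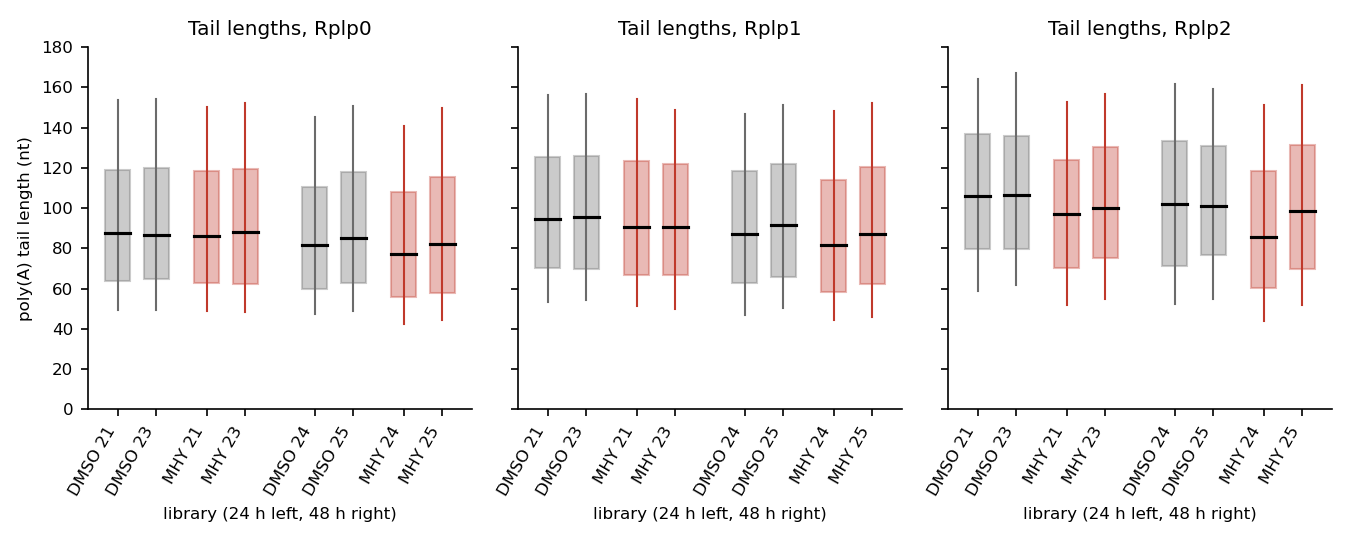
Poly(A) tail length in nt (y axis) of Rplp0, Rplp1 and Rplp2 in each of the 8 libraries (x axis; grey DMSO, red MHY). Black bars are medians, boxes hold the middle of the reads (25th to 75th percentile) and lines run from the 10th to the 90th percentile; the median of Rplp2 is 101.2 to 106.6 nt in the 4 DMSO libraries and 85.8 to 100.2 nt in the 4 MHY libraries, lowest in MHY library 24.

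The gap between the members was smaller under MHY at 24 h, in the contrast used to choose the genes. The median tail of Rplp2 exceeded that of Rplp0 by 19.2 ± 1.35 nt (SD, n = 2) under DMSO and by 11.5 ± 0.866 nt (n = 2) under MHY at 24 h. At 48 h it did so by 18.4 ± 3.20 nt (n = 2) and 12.6 ± 5.42 nt (n = 2), and the groups overlapped (exact permutation test, p = 0.67). Taken as the share of reads with tails of 30 to 90 nt, called ~60-nt tails after the study, the mean of Rplp2 minus Rplp0 was -18.2 percentage points with DMSO and -9.71 with MHY at 24 h, and -17.6 and -11.5 points at 48 h. The 48-h gap in ~60-nt share was -7.98 and -15.1 points in MHY libraries 24 and 25 and -16.8 and -18.4 points in the DMSO libraries (exact permutation test, p = 0.33). MHY library 25 alone differed from the DMSO mean by 2.51 points in this gap and by -2.03 nt in that of the medians.

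The members took different places among the ribosomal proteins. Among 79 ribosomal protein genes with at least 100 reads in each library, Rplp0 ranked 1st to 9th in ~60-nt share over the 8 libraries, Rplp1 7th to 30th and Rplp2 47th to 76th. Over 231 genes of that depth, 93.5% to 100% of the others had a lower ~60-nt share than Rplp0, and 12.6% to 69.1% had a lower share than Rplp2.

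At 24 h the ~60-nt share of Rplp2 was the measure that the choice of genes used. It was 32.9% (95% Wilson interval 29.6% to 36.2%, 773 reads) in DMSO library 21 and 34.8% (31.97% to 37.8%, 1040 reads) in DMSO library 23. Under MHY it was 43.2% (40.04% to 46.4%, 938 reads) in library 21 and 40.5% (37.05% to 44.1%, 748 reads) in library 23. The intervals cover counting error only. The groups did not overlap, and the means differed by 8.01 percentage points, with MHY higher. In Rplp1 the share was 44.8% and 44.4% under DMSO, and 48.5% in each MHY library, 3.91 points higher. In Rplp0 it was 52.1% and 51.998% under DMSO and 52.4% and 50.7% under MHY, and the groups overlapped. Of the 3 members 2 (Rplp1 and Rplp2) were separated in this direction at 24 h, beside 17.9% of the 1949 genes fitted.

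Each of the 3 runs of 24 h gave the same order for Rplp2. Its MHY libraries lay above its DMSO libraries by 11.2, 6.65 and 3.70 percentage points in runs 1, 2 and 3. In run 3 the lowest MHY value was 37.2% and the highest DMSO value 36.9%. Rplp1 was higher under MHY by 4.48, 1.77 and 5.57 points, with overlap in run 2. For Rplp0 MHY minus DMSO was -2.41 points in run 1, 0.108 in run 2 and 2.70 in run 3. The runs held the same 4 libraries and are not counted as further biological replicates.

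**Figure D2:**
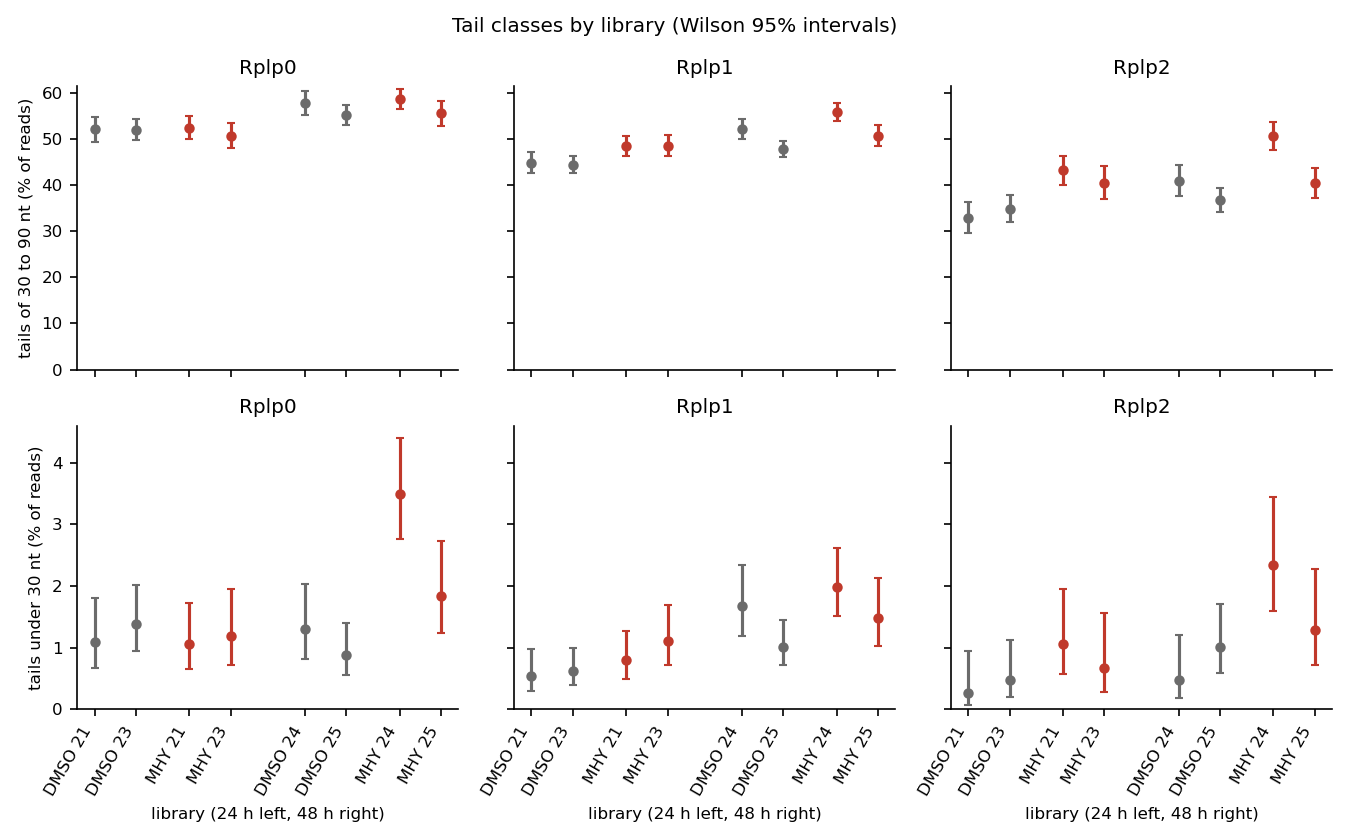
Share of reads with tails of 30 to 90 nt (upper row) and under 30 nt (lower row), in percent (y axes), for Rplp0, Rplp1 and Rplp2 in each library (x axis; grey DMSO, red MHY). Points are the values and bars the Wilson 95% intervals; the Rplp2 points of 24 h are 32.9% and 34.8% under DMSO and 43.2% and 40.5% under MHY, while at 48 h the groups overlap in the upper row.

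The stated reason for choosing the genes did not name 48 h, but earlier results of these data were known then. The question at 48 h was whether the tails of the stalk mRNAs differed between treatments. The ~60-nt share of Rplp2 was 40.9% and 36.7% in DMSO libraries 24 and 25, and 50.6% and 40.4% in MHY libraries 24 and 25. The groups overlapped, since MHY library 25 lay under DMSO library 24. The fitted change was 0.45 ± 0.12 (SE, n = 2 libraries a group) on the log2 odds scale and did not pass the threshold (limma, adjusted p = 0.129 over 1949 genes). Without MHY library 24 it was 0.12 (limma, adjusted p = 0.969), and without DMSO library 25 it was 0.30 (adjusted p = 0.991). It passed without MHY library 25 (0.72, adjusted p = 6.16e-05) and without DMSO library 24 (0.55, adjusted p = 0.0276). In Rplp1 the share was 52.1% and 47.8% under DMSO and 55.7% and 50.7% under MHY, a change of 0.23 ± 0.08 (SE) in log2 odds (limma, adjusted p = 0.369), and 0.07 without MHY library 24 or 0.36 without MHY library 25 (adjusted p = 0.972 and 0.00403). Without DMSO library 24 or 25 it was 0.33 or 0.086 (limma, adjusted p = 0.0276 and 0.991). In Rplp0 it was 57.7% and 55.2% under DMSO and 58.6% and 55.5% under MHY. Its change was 0.07 ± 0.08 (SE) (limma, adjusted p = 0.974), and turned sign without MHY library 24 (-0.04) or without DMSO library 25 (-0.02). The SE of these fits rest on weights by read number, and without weights the change of Rplp0 was 0.04 ± 0.29 (SE).

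None of the 3 members was called in ~60-nt share at 48 h (0.257% of genes were), and 2 of 3, Rplp1 and Rplp2, had an unadjusted p under 0.05 (6.16% of genes did). Among the other ribosomal proteins 17 of 44 of the large subunit and 12 of 33 of the small subunit had one. None of the 3 had both MHY libraries above both DMSO libraries at 48 h, beside 17.6% of genes. Within run 4 and run 5 the share of Rplp2 was 6.94 and 6.31 points higher under MHY, and that of Rplp1 2.77 and 3.64 points, with overlap of the libraries in both runs.

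**Figure D3:**
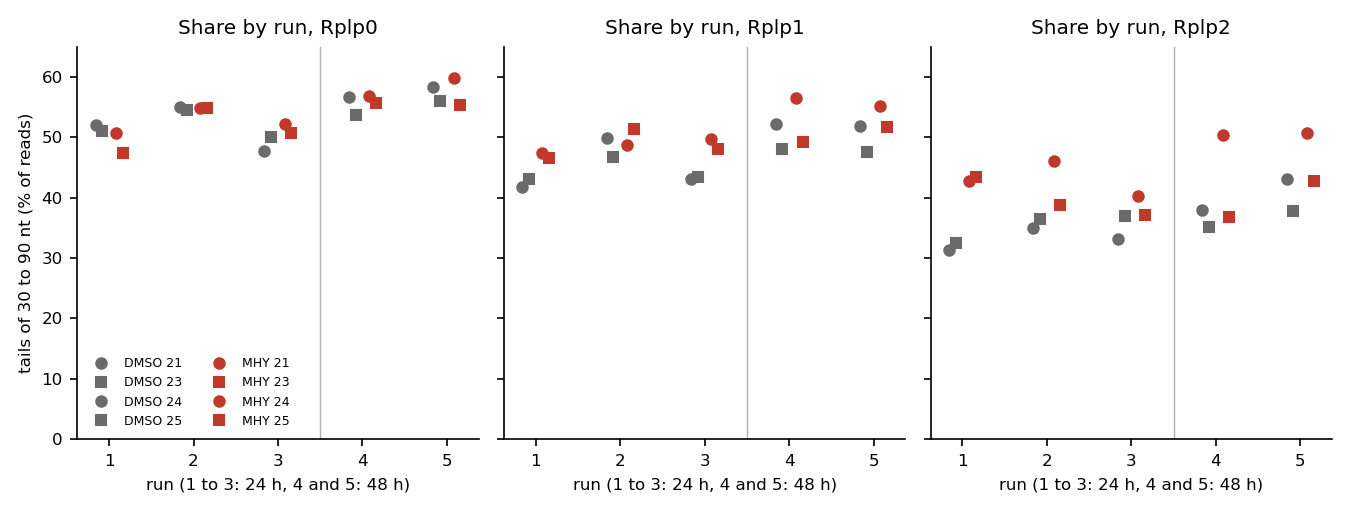
Share of reads with tails of 30 to 90 nt, in percent (y axis), by sequencing run (x axis; runs 1 to 3 hold the 24-h libraries, runs 4 and 5 the 48-h libraries) for Rplp0, Rplp1 and Rplp2. Each point is 1 library in 1 run (grey DMSO, red MHY; circles libraries 21 and 24, squares 23 and 25); for Rplp2 both MHY points lie above both DMSO points in runs 1 to 3 and the treatments overlap in runs 4 and 5.

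Tails under 30 nt (<30-nt) were rare in the stalk mRNAs, with 2 to 67 reads per gene and library. At 24 h the <30-nt share of Rplp0 was 1.10% and 1.39% under DMSO and 1.07% and 1.19% under MHY. That of Rplp1 was 0.534% and 0.622% under DMSO and 0.794% and 1.11% under MHY, and that of Rplp2 was 0.259% and 0.481% under DMSO and 1.07% and 0.668% under MHY. Again 2 of 3 members, Rplp1 and Rplp2, had both MHY libraries above both DMSO libraries at 24 h (7.8% of genes did). The values for Rplp2 rest on 2, 5, 10 and 5 reads, and their Wilson intervals overlap. The 24-h change of Rplp2 was 1.12 in log2 odds over all reads, 0.078 among reads of mapping quality 10 or more and 0.084 with a bound of 20 nt.

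At 48 h the <30-nt share of Rplp0 was 1.29% and 0.886% in DMSO libraries 24 and 25 and 3.49% and 1.84% in the MHY libraries, with 18, 18, 67 and 24 reads. Rplp1 stood at 1.67% and 1.02% under DMSO and 1.99% and 1.48% under MHY. Rplp2 stood at 0.472% and 1.00% under DMSO and 2.34% and 1.28% under MHY. Rplp0 and Rplp2 were separated (2 of 3 members, beside 26.1% of genes) and Rplp1 was not. The fitted changes in log2 odds were 1.39 ± 0.28 (SE) for Rplp0, 1.23 ± 0.39 (SE) for Rplp2 and 0.50 ± 0.25 (SE) for Rplp1 (limma, adjusted p = 0.127, 0.300 and 0.547). With a bound of 20 nt in place of 30 nt they were -0.29, 0.51 and 0.18, so that the direction turned for Rplp0. No member was called, against 0.359% of genes, and 2 of 3, Rplp0 and Rplp2, had an unadjusted p under 0.05, against 10.6% of genes. Among the other ribosomal proteins 28 of 44 of the large subunit and 24 of 33 of the small subunit had one. The median change of all genes was 0.41, a shift in which the members share. The changes were 0.84, 0.75 and 0.26 for Rplp0, Rplp2 and Rplp1 without MHY library 24, and 0.92, 0.76 and 0.036 when each library was centred on its own median over genes. Leaving out each library in turn gave 0.84 to 1.76 for Rplp0, 0.75 to 1.82 for Rplp2 and 0.072 to 0.79 for Rplp1, lowest in Rplp1 without DMSO library 25.

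The mean tail needs no class bounds. For Rplp0 at 24 h the mean was 95.6 and 95.8 nt under DMSO against 94.8 and 94.99 nt under MHY. It was 101.2 and 101.7 nt against 98.6 and 97.2 nt for Rplp1 and 111.1 and 111.9 nt against 101.0 and 104.6 nt for Rplp2. In all 3 members the MHY libraries were both lower, as in 18% of genes, although for Rplp0 the difference of means was only -0.782 nt. At 48 h the mean tail of Rplp2 was 106.1 and 106.6 nt under DMSO and 93.6 and 103.6 nt under MHY, and 1 of 3 members (Rplp2) was separated, beside 26.1% of genes. Its fitted change was -8.38 ± 2.24 nt (SE; limma, adjusted p = 0.0937). Without MHY library 24 this change was -2.82 nt (limma, adjusted p = 0.955). With the median in place of the mean tail the change was -10.1 nt and passed (limma, adjusted p = 0.0455). The changes were -4.20 ± 1.56 nt (SE) for Rplp0 and -3.07 ± 1.41 nt (SE) for Rplp1 (limma, adjusted p = 0.338 and 0.496). For Rplp1 the change was -0.298 nt without MHY library 24 and -0.899 nt without DMSO library 25. It was -0.317 nt when each library was centred on its own median over genes. The Rplp1 change was larger without MHY library 25 (-5.16 nt) and with the median in place of the mean (-5.74 nt). For Rplp0 the change was -1.35 nt without MHY library 24 and also when centred, and -6.13 nt without MHY library 25. In the main fit no member passed the threshold, which 0.77% of genes did, and all 3 had an unadjusted p under 0.05, which 9.34% of genes had. Among the other ribosomal proteins 30 of 44 of the large subunit and 23 of 33 of the small subunit had one. The median change of all genes in mean tail was -3.25 nt, so that Rplp0 and Rplp1 lay close to it and Rplp2 further from it.

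The distributions were compared in bins of tail length. For Rplp2 at 24 h the bins of 30 to 60 nt and 60 to 90 nt held 4.14 and 3.87 percentage points more reads under MHY. Its bins of 120 to 150 nt, 150 to 200 nt and over 200 nt differed by -3.63, -2.50 and -1.96 points. The modal bin (10 nt wide) of Rplp2 was 100 to 110 nt under DMSO and 80 to 90 nt under MHY. At 48 h the gain of Rplp2 lay in the bin of 30 to 60 nt (5.87 points) and little of it in that of 60 to 90 nt (0.920 points), and with MHY library 25 alone these bins differed from the DMSO mean by 2.61 and -0.926 points. In Rplp0 at 48 h the bin of 30 to 60 nt held 4.49 points more under MHY (2.89 in library 25 alone) and that of 60 to 90 nt differed by -3.88 points, and its ~60-nt share as a whole was 56.4% under DMSO and 57.04% under MHY. The 10th percentile of the tail was lower in each MHY library than in each DMSO library of its time for all 3 members, as in 14.8% of genes at 24 h and 27% at 48 h. At 48 h the means differed by -4.649 nt for Rplp0, -3.28 nt for Rplp1 and -5.88 nt for Rplp2 (exact permutation test, p = 0.33 for each), and MHY library 25 alone by -3.47, -2.67 and -1.93 nt.

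**Figure D4:**
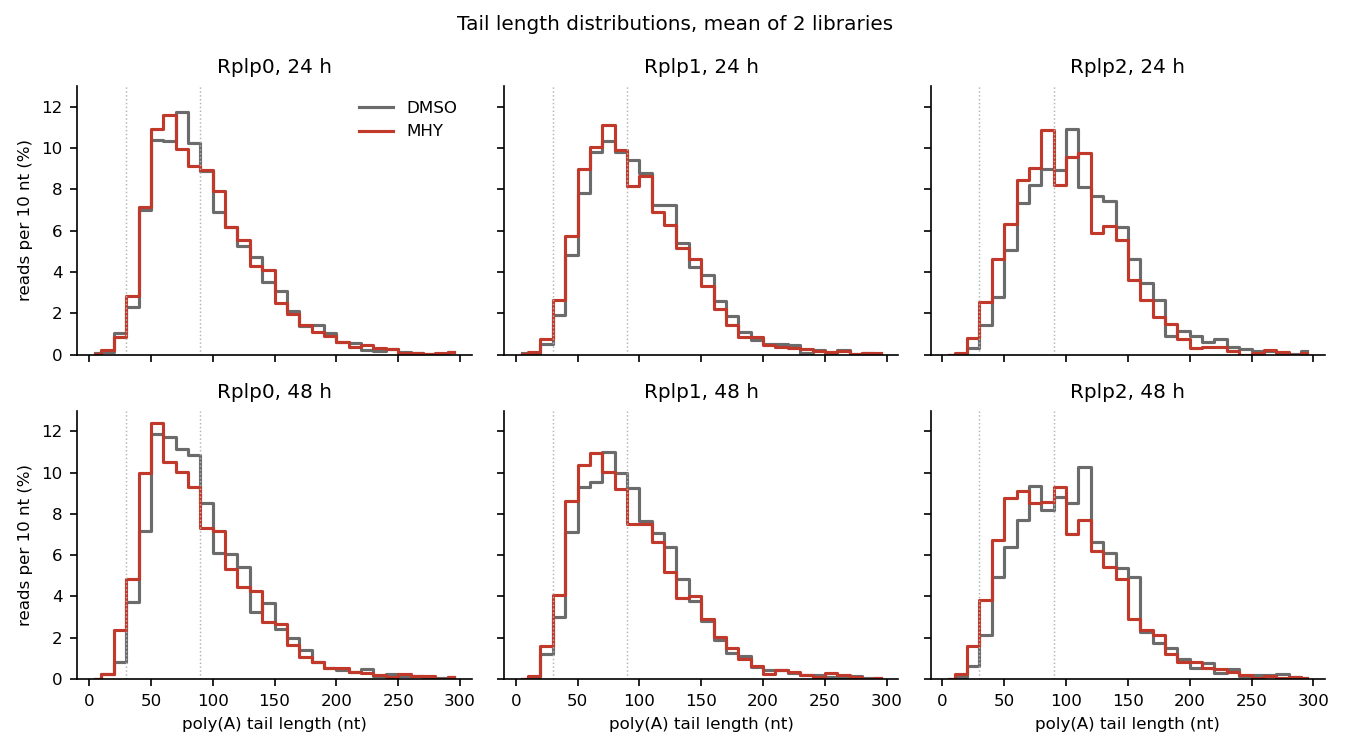
Percent of reads per 10 nt of tail length (y axis) against poly(A) tail length in nt (x axis), for Rplp0, Rplp1 and Rplp2 at 24 h (upper row) and 48 h (lower row). Lines are the mean of the 2 libraries of a group (grey DMSO, red MHY) and dotted lines mark 30 and 90 nt; the modal bin of Rplp2 at 24 h is 100 to 110 nt under DMSO and 80 to 90 nt under MHY.

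Read numbers were compared next. A direct RNA read is 1 molecule, so that values were scaled by library and not by length, and levels of different genes are not compared. In bulk RNA, fewer cells with an mRNA and less of it per cell cannot be told apart. At 24 h Rplp0 had 7422 and 6985 RPM (scaled by size factors) under DMSO and 6631 and 7286 under MHY. Rplp1 had 10197 and 10179 under DMSO and 9454 and 10915 under MHY, and Rplp2 had 4206 and 3870 under DMSO and 4144 and 4315 under MHY. The groups overlapped for all 3 members.

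At 48 h Rplp0 had 6509 and 6608 RPM (scaled likewise) under DMSO and 5648 and 5897 under MHY. Rplp1 had 9263 and 9587 under DMSO and 7384 and 8563 under MHY, and Rplp2 had 3971 and 4215 under DMSO and 3139 and 3894 under MHY. Every MHY library lay below every DMSO library in 3 of 3 members, as in 21.3% of genes. The fitted log2 changes were -0.19 ± 0.09 (SE) for Rplp0, -0.26 ± 0.08 (SE) for Rplp1 and -0.25 ± 0.10 (SE) for Rplp2 (limma voom, adjusted p = 0.344, 0.0606 and 0.234 over 4116 genes). None passed, whereas 1.72% of genes did, and all 3 had an unadjusted p under 0.05, as had 12.3% of genes. Among the other ribosomal proteins 29 of 44 of the large subunit and 20 of 33 of the small subunit had one. With library totals in place of size factors the median of all genes moved from -0.02 to 0.10 and the members were at -0.08, -0.15 and -0.14. Their distance from the median gene was about the same, but the libraries of Rplp2 then overlapped (3969 and 4094 RPM against 3425 and 4012). Without MHY library 24 the changes were -0.15, -0.14 and -0.07. Over all genes the calls were 17 higher and 54 lower (23.9% higher) with size factors and 32 higher and 28 lower (53.3% higher) with library totals.

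Read starts were compared to pick near full-length reads, and whether shorter reads came from broken molecules was not tested. Of the reads of the main transcript, 75.3% to 79.0% (Rplp0), 87.7% to 90.5% (Rplp1) and 86.6% to 90.5% (Rplp2) began within 10 nt of the usual start. Among such near full-length reads of Rplp2 the median tail was 108.7 and 108.3 nt under DMSO and 99.5 and 100.3 nt under MHY at 24 h, and 101.5 and 102.8 nt under DMSO and 85.9 and 99.9 nt under MHY at 48 h. At 48 h MHY library 25 alone was -2.28 nt from the DMSO mean in these reads. The share of all alignments that passed the quality tag was 83.6% to 87.9% for Rplp0, 86.3% to 90.7% for Rplp1 and 88.3% to 91.0% for Rplp2. For Rplp0 at 48 h the means differed by 2.48 points, with MHY higher (exact permutation test, p = 0.33), and the part of this share in the read numbers was not tested.

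Rplp2 differed from the other members in its isoforms. Its main transcript held 7244 reads, and ENSMUST00000106003.1, ENSMUST00000106004.7 and the short ENSMUST00000134636.1 held 206, 113 and 6. Of the Rplp2 reads, 50% to 59.7% reached a mapping quality of 10 (a score of how uniquely a read was placed), and for Rplp0 and Rplp1 at least 99.5% did. Reads were summed per gene, and where else the low-scoring reads could align was not tested. With that mapping quality the ~60-nt change of Rplp2 at 48 h was 0.35 log2 odds and the <30-nt change 2.12 (limma, adjusted p = 0.756 and 0.0360), so that the latter was called in that subset of reads.

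The other ribosomal proteins give the setting for these values. They were counted in lists of 44 proteins of the large subunit and 33 of the small subunit without the members. In ~60-nt share at 48 h 42 of 44 and 31 of 33 had a positive change, beside 1077 of all 1949 genes. The medians were 0.20 and 0.19 log2 odds beside 0.05 over all genes, and 1 gene of each list was called. Leaving out MHY library 24, 31 of 44 and 26 of 33 were positive, with medians of 0.07 and 0.10. When each library was centred on its own median over genes, the medians were 0.16 and 0.15, with 0 and 1 genes called. In the main fit the called genes were those with the largest change, Rpl7 (0.50 ± 0.11, SE, limma adjusted p = 0.0380) and Rpsa (0.46 ± 0.09, SE, limma adjusted p = 0.0162). The smallest changes were those of Rpl24 (-0.16) and Rps26 (-0.21). Rplp2 (0.45) lay near the upper end of both lists and Rplp0 (0.07) in their lower part. Without MHY library 24 Rplp2 was at 0.12 and Rplp0 at -0.04, beside 0.31 for Rpl7 and 0.30 for Rpsa. The place of Rplp2 near the upper end thus depended on that library. In <30-nt share 43 of 44 and 33 of 33 were positive, beside 1296 of all 1949 genes. The medians were 0.75 and 0.86, and 2 and 4 genes were called, all higher. These medians were 0.28 and 0.39 when each library was centred on its own median over genes, and 0.52 and 0.79 without MHY library 24, and in both cases none of the 6 genes was called. The largest changes were those of Rpl3 (2.40) and Rps2 (2.87) and the smallest those of Rpl38 (-0.11) and Rps15 (0.32). None of these 4 was called (limma, adjusted p = 0.127, 0.162, 0.939 and 0.837). Without MHY library 24 they were 1.83, 3.24, -0.60 and -0.40.

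In mean tail length 44 of 44 and 32 of 33 had a negative change, beside 1247 of all 1949 genes. The medians were -5.15 and -5.76 nt, and 6 and 4 genes fell. The extremes were Rpl3 (-12.4 ± 2.47 nt, SE) and Rps19 (-11.6 ± 2.45 nt, SE), which both passed (limma, adjusted p = 0.0206 and 0.0229), and at the other end Rpl15 (-1.69 nt, but 2.11 nt without MHY library 24) and Rps26 (1.34 nt). When each library was centred on its own median over genes, 35 of 44 and 29 of 33 were negative, with medians of -2.39 and -2.98 nt, and the calls dropped to 2 in each list. Without MHY library 24, 38 of 44 and 27 of 33 were negative, with medians of -2.97 and -3.37 nt, and in none of the 4 measures was a gene of either list called (Rpl3 and Rps19 then had -7.76 and -5.10 nt, limma adjusted p = 0.928 and 0.955).

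Read numbers at 48 h were lower for 44 of 44 and 33 of 33, beside 2118 of all 4116 genes. The medians were -0.24 for both lists, and 4 and 1 genes fell. The largest changes were those of Rpl9 (-0.63 ± 0.14, SE, limma voom adjusted p = 0.000758) and Rps27 (-0.62 ± 0.16, SE, limma voom adjusted p = 0.00985). Without MHY library 24 these were -0.44 and -0.23. With library totals 38 of 44 and 33 of 33 were below 0, the medians were both -0.13, and 1 gene of each list, Rpl9 and Rps27, was called (limma voom, adjusted p = 0.00387 and 0.0455). Without MHY library 24 the medians were -0.13 and -0.16 and no gene was called. The members (-0.19 to -0.26) were close to the middle of the lists.

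**Figure D5:**
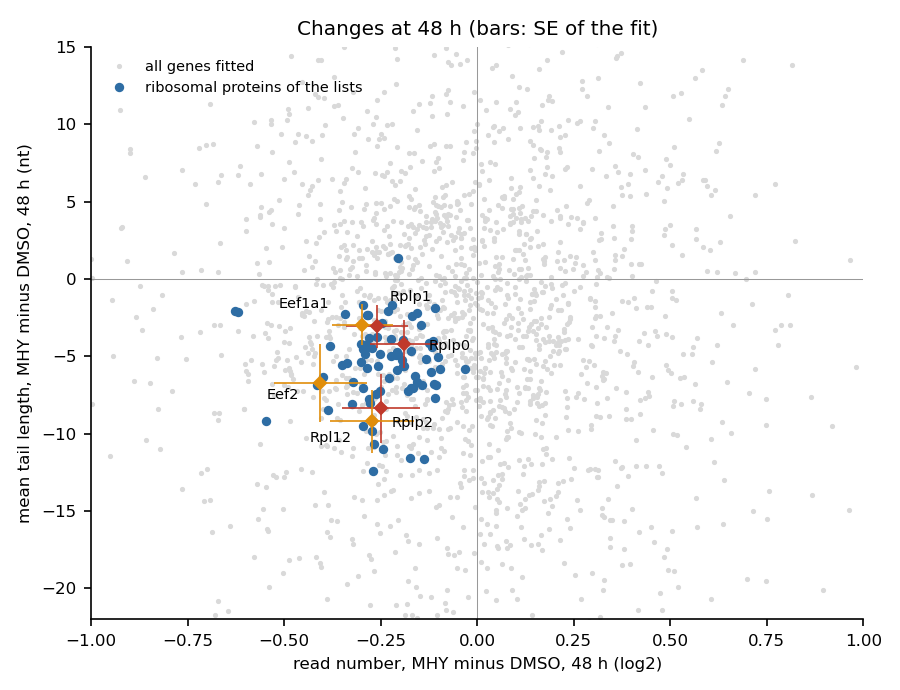
Change in mean tail length in nt (y axis) against change in read number on the log2 scale (x axis), MHY minus DMSO at 48 h, for 1949 genes (grey; 148 lie outside the axes), ribosomal proteins of the lists (blue), the 3 stalk genes (red) and Rpl12, Eef1a1 and Eef2 (orange). Bars on the named genes are SE of the fits; Rplp2 (-8.38 nt) and Rpl12 (-9.21 nt) lie lower on the y axis than Rplp0 (-4.20 nt) and Rplp1 (-3.07 nt).

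In Rpl12, whose protein joins P0 at the stalk base, a tail measure passed. Its mean tail was 106.4 and 107.9 nt in DMSO libraries 24 and 25 and 95.4 and 101.5 nt in the MHY libraries, and it fell by 9.21 ± 2.04 nt (SE; limma, adjusted p = 0.0273). Its ~60-nt share was 42.4% and 41.6% under DMSO and 52.4% and 46.6% under MHY at 48 h, a separated change of 0.46 ± 0.11 log2 odds (SE; limma, adjusted p = 0.0565) that missed the threshold. Left without MHY library 24, these changes were -5.75 nt and 0.28 (limma, adjusted p = 0.955 and 0.969). At 24 h that share was 40.8% and 39.2% under DMSO and 41.4% and 40.6% under MHY. The groups of Rpl12 overlapped at 24 h in this share, whereas in mean tail they did not (108.9 and 109.1 nt under DMSO, 105.7 and 106.6 nt under MHY), as in 18% of genes.

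The list of factors that bind the stalk held 12 genes, of which 9 were deep enough for the tail fits and 10 for read number. None of the 9 was called in a tail measure at 48 h (3 had an unadjusted p under 0.05 in <30-nt share, 2 in ~60-nt share and 2 in mean tail, limma), and 2 of 10 fell in read number. These were Eef1a1, which delivers aminoacyl-tRNA (-0.30 ± 0.08, SE; limma voom, adjusted p = 0.0165), and Eef2, the translocase (-0.41 ± 0.12, SE; limma voom, adjusted p = 0.0482). Eef1a1 had 10518 and 12677 RPM under DMSO and 9137 and 9737 under MHY, and Eef2 had 2009 and 2439 under DMSO and 1527 and 1908 under MHY. The changes were -0.25 and -0.23 without MHY library 24, and neither passed (limma voom, adjusted p = 0.326 and 0.811). With library totals they were -0.19 and -0.30, and Eef2 no longer passed (limma voom, adjusted p = 0.0472 and 0.132). In ~60-nt share 7 of the 9 were below 0 (872 of all 1949 genes were), with a median of -0.15 (-0.38 without MHY library 24). Eef1a1 (0.25) and Eef2 (0.23) were above 0, with 0.042 and 0.18 without MHY library 24. Several of the 7 had few reads and wide SE, such as Hbs1l (-1.56 ± 0.73), Gspt1 (-0.59 ± 0.49) and Abce1 (-0.067 ± 0.52).

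The ~60-nt share of Eef1a1 was 32.01% and 32.6% under DMSO and 37.2% and 36.3% under MHY at 24 h, and 40.5% and 35.7% under DMSO and 44.04% and 38.1% under MHY at 48 h. The groups were thus apart at 24 h and overlapped at 48 h, as for Rplp1 and Rplp2. Among genes for stalk assembly, Mrto4, which holds the site of P0 in the maturing ribosome, had a ~60-nt change of -0.22 ± 0.37 (SE) and a read number change of -0.25 ± 0.19 (SE; limma, adjusted p = 0.974 and 0.629), and Dusp12 had a read number change of 0.30 ± 0.46 (SE; limma voom, adjusted p = 0.863). Both read number changes turned sign without MHY library 24 (0.11 and -0.32). Of the kinase CK2, which phosphorylates the P proteins, Csnk2a1, Csnk2a2 and Csnk2b had read number changes of -0.73, 0.68 and -0.31, none of them called (limma voom, adjusted p = 0.597, 0.351 and 0.540), and of 0.35, 0.61 and -0.040 without MHY library 24.

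Over the 8 libraries the ~60-nt share (log2 odds) of Rplp1 and Rplp2 followed each other with r = 0.906, that of Rplp0 and Rplp1 with r = 0.828 and that of Rplp0 and Rplp2 with r = 0.593. Of 231 genes at or above 100 reads per library, the closest to Rplp1 were Eef1a1 (r = 0.992), Rpl23a (r = 0.990) and Rps12 (r = 0.971). Among the closest to Rplp2 were Rps9 (r = 0.974) and Pgk1 (r = 0.968), and the closest to Rplp0 were Rps10 (r = 0.954), H2az1 (r = 0.952) and Ptma (r = 0.951). These r are descriptions over 8 points that share their libraries, runs, time points and treatments, and the 24-h libraries are among those used to choose the genes.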

How the data were processed

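Direct RNA libraries of P19 cells (2 per group, 4 groups) were read from the deposited per-read table. Before deposit the authors used Guppy for base calls, minimap2 (version 2.20) for alignment to GENCODE vM17 transcripts of mm10, Nanopolish for tail lengths and Deeplexicon for barcodes. Tail lengths were deposited in nt, without normalization. Mapping quality was deposited as a score, barcode confidence as a fraction and alignment positions in nt along the transcript. No counts were used as deposited; reads were counted here.

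Of 2439710 alignments, those with the tag PASS (83.1%) on mRNAs were kept once per read and contig, after 66955 on mitochondrial transcripts and 12169 on pseudogenes were set aside, which left 1926118. The 3 genes and all lists were chosen with earlier results of these data known.

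Shares of tails (30 to 90 nt, under 30 nt) were fitted per gene as log2 odds, with 0.5 read added to each side, and mean tails in nt, with limma (version 3.58.1), weighted by read number, over 1949 genes with at least 10 reads in each of the 8 libraries. Read numbers, printed as RPM, were fitted with limma voom and median-of-ratios size factors over 4116 genes with at least 10 reads in 2 libraries. Genes with a Benjamini-Hochberg adjusted p under 0.05 are called changed. Only the 48-h contrast was tested. Wilson intervals (95%) cover counting error only. The SE of the tail fits use weights by read number and a spread shared among genes. They do not measure the spread of the 2 libraries of 1 gene alone. Scripts were tested on simulated data. Genes were named by a rule: the members, every gene of the stalk base, assembly, factor and kinase lists, the largest and smallest change in each ribosomal protein list, and the 3 genes closest to each member in ~60-nt share. Some genes that this rule names are not reported here. Alternatives changed the class bounds, filters, weights, scaling, features, runs and libraries.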

Additional observations from a re-analysis of the deposited data

How the results depend on the processing

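Leaving out each library in turn gave, at 48 h, -0.041 to 0.14 (Rplp0), 0.066 to 0.36 (Rplp1) and 0.12 to 0.72 (Rplp2) log2 odds in ~60-nt share, -6.13 to -1.35 nt (Rplp0) and -12.9 to -2.82 nt (Rplp2) in mean tail, and -0.35 to -0.14 (Rplp1) and -0.39 to -0.075 (Rplp2) in read number. For these the largest sizes came without MHY library 25 and passed, except the ~60-nt share of Rplp0, and the smallest or opposite values came without MHY library 24. Other 48-h changes kept more of their size without MHY library 24, such as the <30-nt share of Rplp0 (0.84 of 1.39) and Rplp2 (0.75 of 1.23) and the read number of Rplp0 (-0.15 of -0.19). The ~60-nt share of Rplp0 turned sign without DMSO library 25 (-0.02), and the ~60-nt shares of Rplp1 and Rplp2 passed without DMSO library 24 (0.33 and 0.55). At 24 h the ~60-nt change ran from -0.078 to 0.024 for Rplp0 and 0.22 to 0.24 for Rplp1. Over all genes the calls ran from 0 to 36 in ~60-nt share (5 in the report), 0 to 17 in <30-nt share (7), 0 to 53 in mean tail (15) and 17 to 147 in read number (71) across the alternatives.

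Several other settings brought a 48-h value past the threshold (limma, adjusted). Without the filter on low counts the read numbers of all 3 members did (-0.20, -0.28 and -0.27), as did that of Rplp1 with transcripts as features (-0.25). The <30-nt share of Rplp0 did with at least 30 reads per library (1.39, 759 genes tested), and that of Rplp2 did among reads of mapping quality 10 or more (2.12). The mean tail of Rplp2 did as a median (-10.1 nt), with a barcode confidence of at least 0.9 (-8.39 nt) and with transcripts as features (-8.06 nt). With bounds of 20 nt and 40 to 80 nt the <30-nt value of Rplp0 reversed (-0.29), and the 24-h ~60-nt values were 0.19 (Rplp1) and 0.39 (Rplp2). For Rplp1 at 24 h that value was 0.26 with the barcode minimum and 0.20 when centred on the library, an alternative chosen after seeing the data. Single runs gave, at 24 h, -0.13 and 0.15 for Rplp0 (runs 1 and 3), 0.26, 0.11 and 0.33 for Rplp1 (runs 1 to 3) and 0.68 and 0.22 for Rplp2 (runs 1 and 3). At 48 h they gave -0.048 for the read number of Rplp0 (run 4) and 2.94 and 0.36 for the <30-nt share of Rplp2 (runs 4 and 5). Without weights by read number no gene was called in a tail measure at 48 h. The mean tail changes were then -3.38 ± 5.18 nt (SE) for Rplp0 and -2.37 ± 5.19 nt (SE) for Rplp1. The cause of these differences was not tested.

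With the replicate number as a block (replicate block), the ~60-nt share of Rplp2 (0.39), the <30-nt share of Rplp0 (1.25), the mean tail of Rplp2 (-7.57 nt) and the read number of Rplp1 (-0.25) passed, and calls over all genes were 7, 17, 22 and 101. Over 759 genes the differences between the 2 libraries of a group did not follow each other between treatments (r from -0.05 to 0.09). This r cannot see a shift common to all genes, so that pairing of same-numbered libraries is not settled by it. Over all reads the median tail was lower in library 21 than in 23, and in 24 than in 25, under both treatments. It was 100.7 and 102.5 nt (DMSO) and 100.1 and 101.5 nt (MHY) at 24 h, and 96.8 and 99.3 nt and 92.4 and 98.2 nt at 48 h.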
